A study of Homo sapiens with 4 samples.

Results

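Open chromatin that lies far from any protein-coding gene was examined by single-cell ATAC-seq of Panc1, a cell line from a human pancreatic ductal carcinoma, taken from transplanted mice. The mice had been given Inflachromene, a compound that binds the HMGB1 and HMGB2 proteins of chromatin, or Carrier alone. Each group had 2 libraries of 1 mouse each, called Inflachromene 11, Inflachromene 35, Carrier 12 and Carrier 31 after the mouse numbers; the labels used here state no dose, duration, graft site, mouse strain or age. All 4 libraries hold the same cell line, so other lines or clones were not sampled, and the tests measure the spread between mice of 1 group. Peaks of the 4 libraries were merged where they overlapped by at least 1 bp on chromosomes 1 to 22 and X, and 50771 of 128195 merged regions held a peak in every library and are called consensus regions. The 3546 consensus regions that lie 100 kb or more from every protein-coding gene body (GRCh38) are the members, 6.98% of the consensus regions. Position and a peak in every library chose them, and the difference between groups was not used.

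Open regions at such distances are generally distal regulatory elements: short stretches without nucleosomes where transcription factors bind and from which distant promoters can be contacted through looping of the chromatin fibre. Long gene-poor stretches of the genome, called gene deserts, often border genes that direct development, and their elements can act over very long distances. The same stretches also hold genes that make no protein, among them long non-coding RNA (lncRNA) genes, transcribed by RNA polymerase II, and tRNA genes, transcribed by RNA polymerase III from promoter elements inside the gene. Accessibility was read as counts of transposase insertions in each peak, and the level of a region is given as CPM (library-scaled counts, adjusted with TMM factors over all consensus regions) per kb of its width.

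Sequences are available for members that hold the start site of an annotated transcript. Printed 5′ to 3′ on the strand of the transcript are the 300 bases from 250 before to 50 after 4 such start sites, as given by RefSeq for GRCh38.p14. LINC00662 (chr19:27793891-27794190, minus strand) and LINC01132 (chr1:234723792-234724091, plus strand) lie in the 2 most accessible members with a lncRNA start site, the start site of LINC00472 (chr6:71420696-71420995, minus strand) is shown for its high GC content, and that of LOC105375103 (chr6:57800236-57800535, minus strand) lies beside a tRNA gene in a member with one of the lowest fold changes. Capitals mark matches, on either strand, to an ETS or SP motif in LINC00662, to RUNX, GATA and AP-1 motifs in that order in LINC01132, to SP motifs in LINC00472 and to the B box, the internal promoter element of tRNA genes, in LOC105375103; the letters of the other motifs are given with their counts.
LINC00662: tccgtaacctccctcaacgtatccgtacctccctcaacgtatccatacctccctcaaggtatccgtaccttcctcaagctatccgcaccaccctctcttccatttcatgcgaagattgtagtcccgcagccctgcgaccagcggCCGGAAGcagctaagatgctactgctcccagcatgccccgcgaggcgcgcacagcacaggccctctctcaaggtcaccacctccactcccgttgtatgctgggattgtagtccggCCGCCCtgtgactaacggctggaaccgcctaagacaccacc
LINC01132: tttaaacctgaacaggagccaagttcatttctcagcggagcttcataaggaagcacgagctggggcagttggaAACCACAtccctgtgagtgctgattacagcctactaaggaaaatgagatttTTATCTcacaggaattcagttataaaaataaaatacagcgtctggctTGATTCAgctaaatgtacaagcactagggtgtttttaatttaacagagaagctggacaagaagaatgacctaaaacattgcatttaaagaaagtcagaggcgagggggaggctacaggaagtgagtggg
LINC00472: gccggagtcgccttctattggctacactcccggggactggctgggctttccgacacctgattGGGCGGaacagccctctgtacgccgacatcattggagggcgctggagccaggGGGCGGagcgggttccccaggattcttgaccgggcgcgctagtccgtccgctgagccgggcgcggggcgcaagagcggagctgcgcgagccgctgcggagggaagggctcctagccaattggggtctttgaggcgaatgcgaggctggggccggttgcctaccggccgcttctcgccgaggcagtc
LOC105375103: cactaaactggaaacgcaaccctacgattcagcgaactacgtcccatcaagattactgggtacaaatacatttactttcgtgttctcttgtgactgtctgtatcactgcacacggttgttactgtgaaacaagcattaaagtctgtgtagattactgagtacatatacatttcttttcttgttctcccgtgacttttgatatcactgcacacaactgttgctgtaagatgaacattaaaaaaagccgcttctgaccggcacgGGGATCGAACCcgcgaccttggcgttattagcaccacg

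One member (chrX:45769807-45770668) holds the start site of MIR222HG, the host transcript of a microRNA pair, whose hairpins lie 23.5 kb (MIR221) and 22.7 kb (MIR222) away. These microRNAs are known for restraining the cell cycle inhibitor CDKN1B, and both share the seed, bases 2 to 8, in capitals.
hsa-miR-221-3p: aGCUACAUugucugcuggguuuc
hsa-miR-222-3p: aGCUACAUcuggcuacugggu
The level of that member was 29.7 and 40.2 CPM per kb in Inflachromene 11 and 35, against 32.8 and 33.8 CPM per kb in Carrier 12 and 31, so the Carrier values lay between the Inflachromene ones. It was singled out after its values were seen.

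The libraries held 27088391 counts in Inflachromene 11, 39947056 in Inflachromene 35, 33336531 in Carrier 12 and 29295799 in Carrier 31, and between 939 and 2070 barcodes of each had at least 2000 counts and are called deep nuclei. Inflachromene 35 stood apart: it had the most counts and 96240 peaks, against 75717 to 78639 in the other libraries. Barcodes were also shared between libraries, 1209 of them between Inflachromene 11 and Carrier 12, 357 between both Carrier libraries and 155 or fewer in every other pair; at most 10 were deep in both libraries of a pair. With each shared barcode kept only in the library where it had most counts, the median log2 fold change of members, Inflachromene over Carrier, was 0.03, as it was with all barcodes. Consensus regions at an outer end of the gene were present for 7 of 8 preset markers of the carcinoma line (KRT7 had none), for 0 of 4 acinar and 0 of 4 endocrine markers, for 1 of 6 endothelial and 1 of 5 T and NK cell markers, for 4 of 7 fibroblast markers (COL3A1, DCN and LUM had none) and for 5 of 6 myeloid markers (PTPRC had none). The summed level of the fibroblast regions was 116 and 105 CPM per kb in the Inflachromene libraries and 115 and 124 in the Carrier libraries, and that of the myeloid regions was 85.1 and 90.3 against 99.4 and 87.8; their part in the results was not tested.

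Members were narrow, separate elements of much the same width as other consensus regions but of lower level. Their median width was 944 bp (range 483 to 2031 bp) and that of the remaining 47225 consensus regions 935 bp. Their median distance from a protein-coding gene was 193 kb, 434 lay 500 kb or more away, 66 lay 1 Mb or more away, and the farthest was 3.55 Mb from one. The median level of members was 6.61 and 8.13 CPM per kb in Inflachromene 11 and 35, and 7.34 and 6.68 in Carrier 12 and 31. The remaining consensus regions had 11.9 and 12.9 CPM per kb in the Inflachromene libraries and 12.6 and 11.97 in the Carrier libraries. The median of members was thus 0.557 to 0.630 times that of the rest in each library, a mean log2 ratio of -0.78 (SD 0.08, n = 4 libraries); a two-sided exact sign-flip permutation test gave p = 0.125, the smallest that 4 libraries allow. All 4 libraries went the same way.

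Median levels were lower in classes far from genes than in classes near them. Over gene bodies the median over libraries was 14.3 CPM per kb, at less than 10 kb 11.7, at 10 to 50 kb 9.34 and at 50 to 90 kb 8.18. Just outside the limit, at 90 to 100 kb, 364 regions had a median of 8.25 CPM per kb, and just inside it, at 100 to 110 kb, 311 regions had 7.25. Farther out the medians were 7.61 at 110 to 250 kb, 6.68 at 250 to 500 kb, 6.15 at 500 kb to 1 Mb and 4.89 beyond 1 Mb. Inflachromene 35 had the highest median of the 4 libraries over gene bodies and in each class from 10 kb to 1 Mb. Carrier 12 had it at less than 10 kb and beyond 1 Mb. The spread among members was wide: the 10th percentile was 3.49 CPM per kb and the 90th was 22.9.

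**Figure D1:**
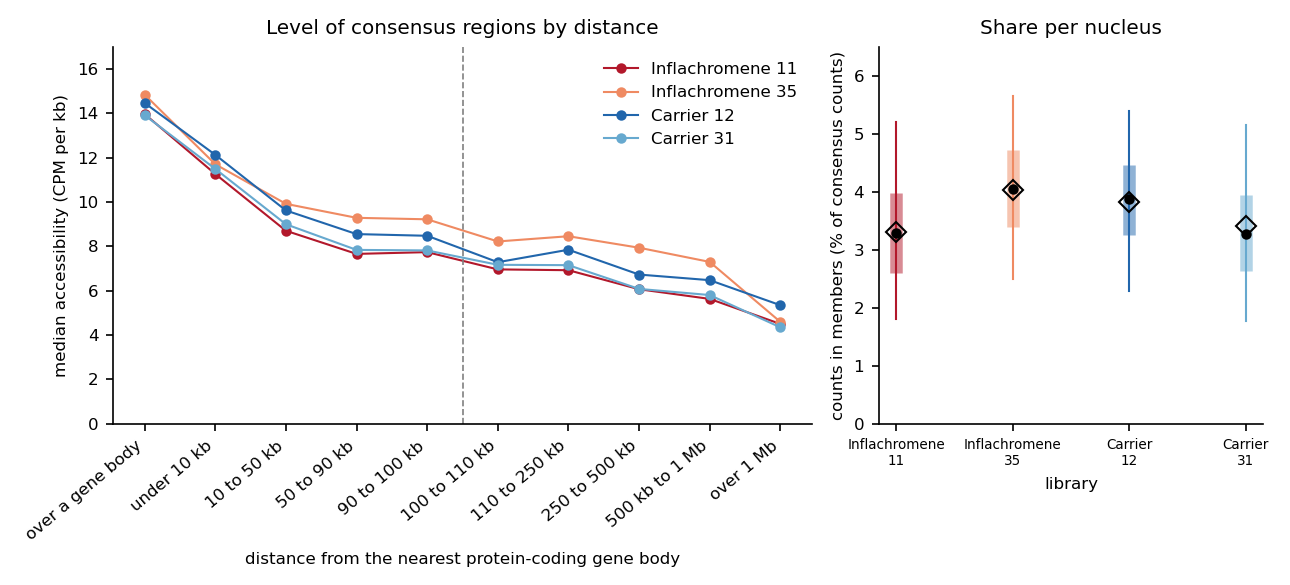
Left, median accessibility (CPM per kb) of consensus regions by distance from the nearest protein-coding gene body, one line per library, with the 100 kb limit dashed; members lie right of it, at 4.35 to 8.46 CPM per kb. Right, share of a deep nucleus's consensus counts that fell in members: points are medians, thick bars the middle 50%, thin lines the range from 5 to 95%, and open diamonds the share of the whole library; Inflachromene 35 is highest and Inflachromene 11 and Carrier 31 are lowest.

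Members took 3.30% of the consensus counts in Inflachromene 11 (Wilson 95% interval 3.30 to 3.31%) and 4.04% in Inflachromene 35 (4.03 to 4.05%). They took 3.83% in Carrier 12 (3.83 to 3.84%) and 3.42% in Carrier 31 (3.41 to 3.42%). Intervals of shares cover counting error only. The Wilson intervals also treat each count as independent, although most nonzero entries were even, so they may be too narrow. The group means were 3.67 ± 0.52% under Inflachromene and 3.62 ± 0.29% under Carrier (SD, n = 2 each), a difference of 0.05 points that was smaller than the spread within either group (two-sided exact permutation test, p = 1.0, where 0.333 is the smallest possible). The same was seen in single nuclei. The median share per deep nucleus was 3.30% and 4.05% in Inflachromene 11 and 35, against 3.87% and 3.28% in Carrier 12 and 31. A deep nucleus had a count in a median of 224 and 299 members in the Inflachromene libraries and of 258 and 375 in the Carrier libraries, with a median of 18278, 20122, 16316 and 34064 counts per deep nucleus in the same order, and 0 deep nuclei lacked a count in members.

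Peaks far from genes were found in all libraries in a smaller share of cases. Of 12054 merged regions at 100 kb or more, 29.4% had a peak in all 4 libraries, against 40.7% of the merged regions nearer to genes. Far regions also had lower levels, whose part in this was not tested. Another 599 far regions had a peak in both Inflachromene libraries and in neither Carrier library (4.97%, against 3.64% of all merged regions), and 164 had the reverse (1.36%, against 1.60% of all). Inflachromene 35, with the most counts, had peaks in 9166 far regions, while Inflachromene 11 had 6443, Carrier 12 had 6092 and Carrier 31 had 5808. Counts exist only where a library has its own peak, so these regions entered no test.

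Members were spread unevenly over the genome and gathered in a limited number of gene deserts. Between neighbouring protein-coding genes there were 1650 gaps of 200 kb or more; 842 held no member, and 97 gaps with 10 or more held 1580 members, 44.6% of all. Within the parts of these gaps that lie 100 kb or more from a gene, 949 Mb in all, there were 3.70 members per Mb, whereas gene bodies held 24.9 consensus regions per Mb. Every base of these parts was counted, whether or not reads can be placed there, so the densities are not on equal terms. Chromosomes 5 and 8 had the highest share of their consensus regions among members, 12.7% and 12.5%, and chromosome 6 had the most members, 391. Gene-dense chromosome 19 had 11 members, 0.417% of its consensus regions.

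The gap with most members lies on chromosome 6 between RFPL4B and MARCKS, which encodes a substrate of protein kinase C that binds actin and the plasma membrane. It held 43 members at 3.52 to 38.6 CPM per kb, and their summed accessibility was 369 and 529 CPM in Inflachromene 11 and 35, against 375 and 401 CPM in Carrier 12 and 31. Inflachromene 35 was far above the other libraries there and Inflachromene 11 was the lowest. The median log2 fold change of the 43 was 0.20 (30 above 0, 13 below). Next came the gap between CITED2, a transcriptional coregulator, and LOC124901415, also on chromosome 6, with 39 members and a median of 0.06.

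A gap on chromosome 10 between KLF6, a zinc-finger transcription factor, and AKR1E2, an aldo-keto reductase gene, held 37 members in a gap of 1040 kb, with a median spacing of 6.94 kb. The most accessible lay in the lncRNA gene MANCR (chr10:4662822-4663764), at 40.3 and 49.7 CPM in Inflachromene 11 and 35, against 39.2 and 33.7 CPM in Carrier 12 and 31. Both Inflachromene libraries thus lay above both Carrier libraries, as in 14% of all consensus regions. Between IGFBP3, which encodes an insulin-like growth factor binding protein, and TNS3, a focal adhesion protein, lay 36 members whose median log2 fold change was -0.12 (14 above 0), in a window of 10 Mb whose other regions stood at -0.11. The 30 members between MYC and GSDMC were the most accessible of these 6 gaps, with a median of 15.9 CPM per kb and a range of 3.11 to 75.1. The top one lay 111 kb from MYC inside the lncRNA gene PVT1 (chr8:127853927-127854874), with 71.9 and 79.7 CPM under Inflachromene against 67.7 and 65.4 CPM under Carrier. The sixth gap, between ARRDC3 and NR2F1, an orphan nuclear receptor, held 29 members with a median log2 fold change of 0.08. Its top member (chr5:92552089-92553108), 1030 kb from NR2F1, stood at 59.5 and 59.2 CPM in the Inflachromene libraries and 59.3 and 55.3 CPM in the Carrier libraries.

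**Figure D2:**
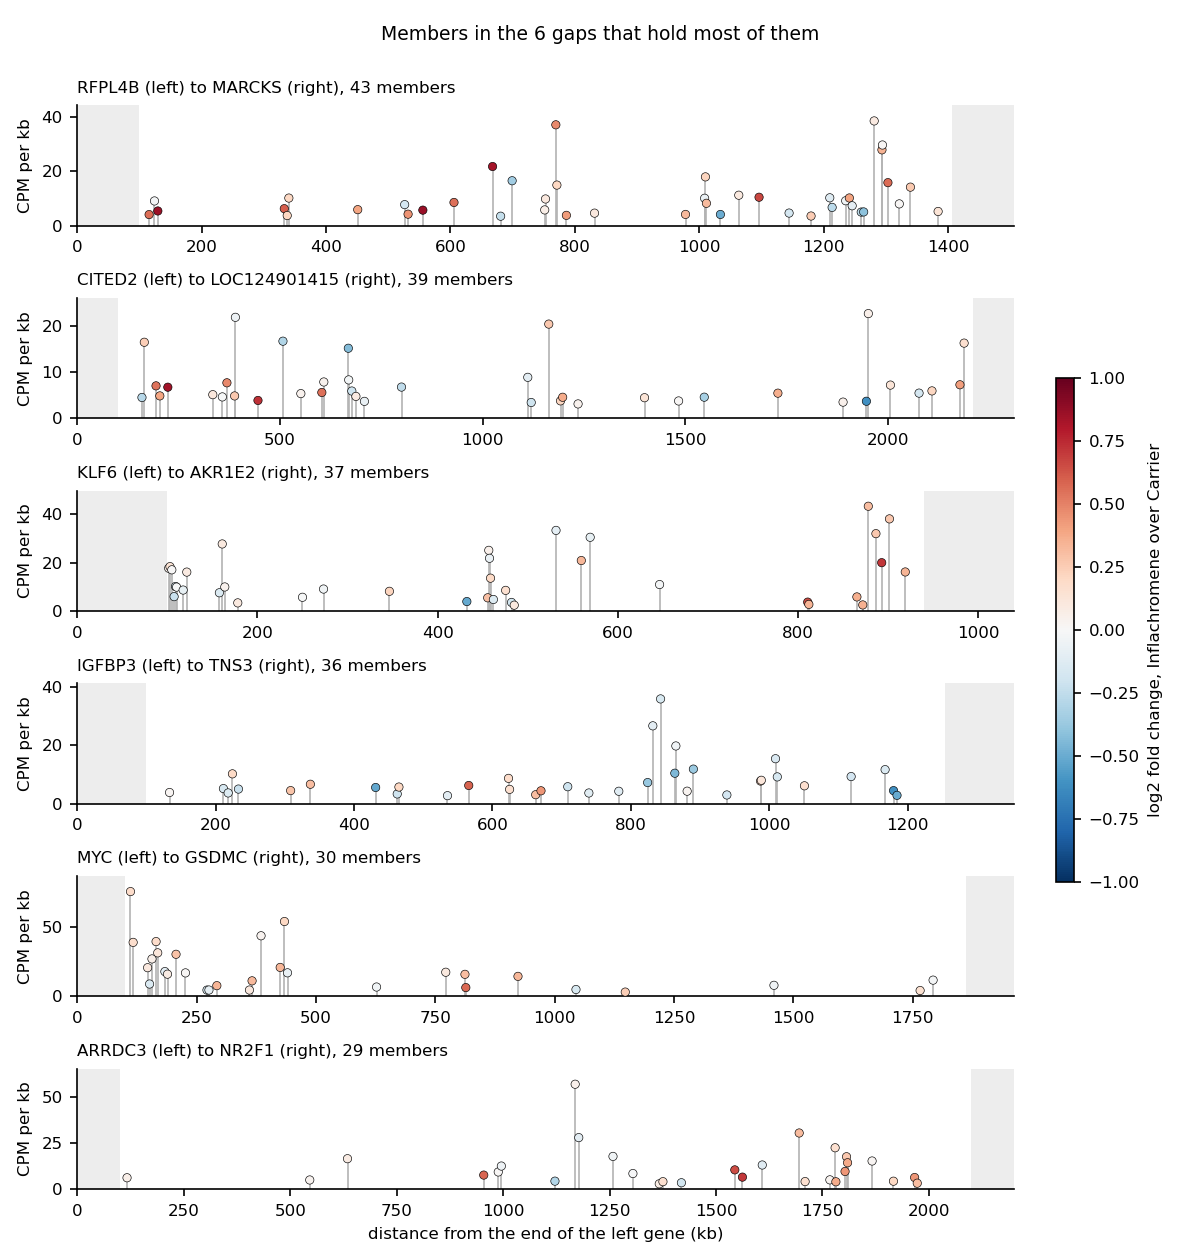
Members in the 6 gaps with most of them, by distance (kb) from the end of the left gene; height is the mean level over the 4 libraries (CPM per kb) and colour the log2 fold change of Inflachromene over Carrier. Grey bands lie within 100 kb of a gene, where no region can be a member; members crowd in the part of the gap next to MYC, and red and blue points mix in each gap.

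The nearest protein-coding genes numbered 1097, of which 66 were nearest to 10 or more members and 449 to just 1. MARCKS (27 members), KLF6 (26), MYC (25), CITED2 (23), NR2F1 (23) and SOX9 (21) were among the genes with most. Nearness does not show that a gene is a target. Of 67 regulators of development known to border gene deserts, 30 were nearest to at least 1 member, and 193 members (5.44%) had such a gene as the nearest, against 304 of the other consensus regions (0.644%); both the distance rule and the choice of list favour such genes, so this is a description. Among pancreatic lineage factors it was 3 of 19 genes with 27 members (0.761%, against 0.150% of the rest): SOX9, a regulator of pancreatic progenitors and ducts, with 21, FOXA2 with 5 and GATA6 with 1. Among mesenchymal and AP-1 factors it was 7 of 19 genes with 55 members (1.55%, against 0.324% of the rest), led by ETS1 (17), RUNX1 (14), ZEB2 (12) and JUN (7).

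The most accessible members lay together on chromosome 9, between MIR31HG and MTAP, the methylthioadenosine phosphorylase gene, next to the interferon gene cluster. One of them (chr9:21591398-21592299, 109 kb from the interferon gene IFNE) had 225 and 229 CPM per kb in Inflachromene 11 and 35, against 278 and 248 in Carrier 12 and 31. A count in it was present in 66.6% of deep nuclei of Inflachromene 11 (exact Clopper-Pearson 95% interval 64.1 to 68.9%). In Inflachromene 35 it was 73.4% (71.4 to 75.3%), in Carrier 12 78.1% (76.2 to 79.8%) and in Carrier 31 72.5% (69.55 to 75.4%). The groups thus overlapped in this share. A second member (chr9:21684635-21685573) had 200 and 228 CPM per kb under Inflachromene and 275 and 233 under Carrier. A pair within 8 kb of it had means of 93.6 and 84.5 CPM per kb. In 3 of these 4 members both Inflachromene libraries lay below both Carrier libraries, as in 17.4% of all consensus regions, with log2 fold changes between -0.21 and -0.36, while in chr9:21677529-21678432 the groups overlapped at -0.28. Non-member regions of the surrounding 10 Mb window stood at -0.35; DNA copy number was not analysed here.

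Other members of high level hold lncRNA start sites or lie in repeated sequence. The LINC00662 and LINC02987 start sites share a member on chromosome 19 (chr19:27793219-27794185), 1411 kb from the nearest protein-coding gene, UQCRFS1, with 120 and 101 CPM per kb in the Inflachromene libraries and 101 and 106 in the Carrier libraries. LINC01132 (chr1:234723872-234724816), 114 kb from IRF2BP2, had 99.3 and 104 CPM per kb under Inflachromene and 94.1 and 96.8 under Carrier. The groups did not overlap, with Inflachromene higher, as in 14% of all consensus regions, at a log2 fold change of 0.09 (standard error 0.15). LINC03006 with CCT6P1 on chromosome 7 had a mean of 77.7 CPM per kb, and LINC00472 with LINC01626 on chromosome 6 one of 77.0. A member on chromosome 21 (chr21:8219554-8220462, mean 112 CPM per kb) lies 0.252 kb from the ribosomal RNA gene RNA45SN2, and one at the pseudogene FRG1CP (chr20:28602397-28603310, 87.7) lies close to the centromere of chromosome 20; both are in sequence with near-identical copies, so their reads may belong elsewhere. The same holds for the farthest members: the first is on the short arm of chromosome 22 (chr22:11973786-11974758, 4.85 CPM per kb), 3.55 Mb from OR11H1, and the next 3, at 4.66 to 87.7 CPM per kb, are beside FRG1CP. The fifth, 2066 kb from any protein-coding gene, holds the LINC01902 start site on chromosome 18 (chr18:39841143-39842122) with 7.30 and 4.92 CPM per kb in the Inflachromene libraries and 5.98 and 5.34 in the Carrier libraries.

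Annotated non-coding genes covered some of the members. A lncRNA gene body overlapped 1237 (34.9%), a lncRNA start site lay in 130 (3.67%), a pseudogene in 84, a tRNA gene in 28, an immunoglobulin or T cell receptor V segment in 13 and a microRNA hairpin (MIR5087) in 1. No annotated gene of any kind overlapped 2187 members (61.7%), and 218 lay 100 kb or more from every annotated gene. Median levels were 27.6 CPM per kb for members with a tRNA gene, 10.5 for those with a lncRNA start site and no tRNA gene, 7.42 for others in a lncRNA body and 6.80 for those in no annotated gene.

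The start sites of lncRNA genes in members had a lower GC content than other accessible start sites. RefSeq windows of 300 bases were matched for 152 start sites of 140 lncRNA genes in members, and their median GC content was 51.0%, against 65.7% for 2696 lncRNA start sites in other consensus regions, 66.3% for 12140 start sites of protein-coding genes in consensus regions and 46.7% for 9981 lncRNA start sites outside consensus regions. The AP-1 motif (TGANTCA), bound by JUN and FOS proteins, was in 24.3% of the member windows, 8.68% of the other accessible lncRNA windows, 10.5% of the lncRNA windows outside consensus regions, 4.36% of the accessible protein-coding windows and 7.68% of all 34961 windows. The SP motif (GGGCGG), bound by SP and KLF factors at GC-rich promoters, was in 27.0% of member windows, 65.1% of other accessible lncRNA windows, 14.95% of the lncRNA windows outside consensus regions, 74.4% of the accessible protein-coding windows and 45.0% of all windows. The shares of the remaining motifs are given for member windows, for lncRNA windows outside consensus regions and for all windows, in that order. The ETS motif (CCGGAAG) was in 8.55%, 2.98% and 10.3%, and the RUNX motif (TGTGGTT) in 6.58%, 5.90% and 4.28%. The GATA motif, spelled AGATAA, was in 13.8%, 17.1% and 10.3%, and the FOX motif, spelled TGTTTAC, in 6.58%, 4.83% and 3.42%. The TEAD motif, spelled GGAATG, was in 18.4%, 18.46% and 14.04%, the motif of CEBP factors (TTGCNNAA) in 13.2%, 15.3% and 10.4%, and the E-box, spelled CANNTG, in 82.2%, 78.6% and 68.7%. GATA, TEAD and CEBP were thus no more frequent in member windows than in lncRNA windows outside consensus regions. In lncRNA windows of other consensus regions, GATA was in 5.08%, TEAD in 12.2%, CEBP in 6.64% and FOX in 2.745%. RUNX was in 2.89% there, the E-box in 60.7% and ETS in 16.3%. Of these motifs, all but ETS were more frequent in member windows than there. The shares were not adjusted for GC content. Both strands were searched, matches to different motifs may overlap, and a match is a description of the letters. LINC01132 had an AP-1 match and 42.0% GC, and LINC00472 a pair of SP matches and 68.7% GC. The 83 member windows with at least 50% GC lay in members with a median of 16.7 CPM per kb and the 69 below 50% in members with 8.44.

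**Figure D3:**
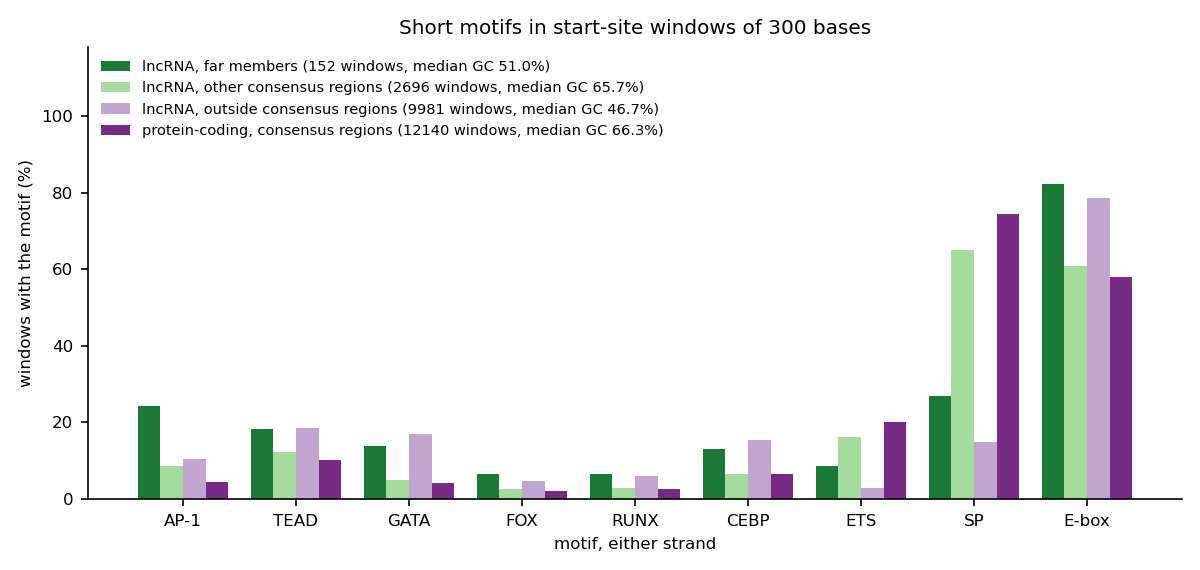
Share of start-site windows of 300 bases (percent) with a match to each of 9 motifs on either strand, for lncRNA start sites in members, in other consensus regions and outside consensus regions, and for protein-coding start sites in consensus regions. AP-1 is in 24.3% of member windows and SP in 27.0%, while SP is in 65.1% and 74.4% of the windows in other consensus regions.

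No member passed the test between Inflachromene and Carrier. edgeR's quasi-likelihood test, adjusted by Benjamini-Hochberg over all 50771 consensus regions, called 0 of 3546 members and 0% of all regions, with a smallest adjusted p of 0.99963. The median log2 fold change was 0.03 over members and 0.01 over all regions, and 90% of members lay between -0.46 and 0.67. At an unadjusted p under 0.05 there were 256 members (7.22%), 183 higher and 73 lower, against 4.48% of all regions (3.04% higher, 1.44% lower). Both Inflachromene libraries lay above both Carrier libraries at 523 members (14.7%; 14% of all regions), and below them at 570 (16.1%; 17.4% of all regions). DESeq2 called 3 of the 2581 members to which it gave an adjusted p (0.116%), all higher. Of all 43880 regions to which it gave one, it called 28 (0.0638%). Both directions of non-overlap were thus close to the share over all regions.

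Members varied more between libraries of 1 group than other regions did, but they also had fewer counts. In Inflachromene 11 and 35 the median was 148 and 258 counts per member, against 263 and 401 per other region. In Carrier 12 and 31 it was 210 and 168, against 356 and 293. The part of these lower counts in the spread and in the width of the intervals was not tested. The median absolute log2 difference between Inflachromene 11 and 35 was 0.34 for members and 0.23 for the rest, and between Carrier 12 and 31 it was 0.23 and 0.17. Inflachromene 35 was the highest of the 4 libraries at 44.9% of members, against 27.7% of the rest, and Inflachromene 11 at 13.5%, against 27.8%. For 74.2% of members and 89.3% of the rest, both bounds of the 95% interval were inside a 2-fold change; at the remaining members a change of 2-fold or more lay within the interval. Single libraries set the calls: leaving out Inflachromene 11 gave 470 called members (420 higher, 50 lower), with 6.26% of all regions called (5.48% higher, 0.788% lower), and leaving out Inflachromene 35 gave 32 (21 higher, 11 lower), with 0.589% of all called (0.313% higher, 0.276% lower). Without Carrier 12 it was 0 members and 0% of all regions, and without Carrier 31 0 members and 0.00985% of all. In each of these fits the group left with 1 library was assumed to vary like the other.

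The 6 members with the smallest p among those higher in both Inflachromene libraries included a pair on the same stretch of chromosome 3, near RBMS3, an RNA-binding protein gene, and LOC105377015. The one nearest to RBMS3 (chr3:30258606-30259663, at 248 kb) had 9.52 and 12.8 CPM in Inflachromene 11 and 35, against 3.74 and 4.43 CPM in Carrier 12 and 31, a log2 fold change of 1.45 (standard error 0.25). The one nearest to LOC105377015 (chr3:30324241-30325203) had 8.63 and 11.8 CPM against 4.73 and 3.55 CPM, at 1.30 (0.27). On chromosome 15, inside the lncRNA gene PCAT29 and 138 kb from RPLP1, a ribosomal stalk protein gene, a member (chr15:69594070-69595078) had 23.7 and 32.9 CPM under Inflachromene against 12.01 and 14.8 CPM under Carrier, at 1.08 (0.22). On chromosome 2, in MIR3681HG and 413 kb from the pseudokinase gene TRIB2 (chr2:12302996-12303955), the values were 16.3 and 22.2 CPM against 9.83 and 7.99 CPM, at 1.11 (0.23). The edgeR adjusted p was 0.99963 for each, while DESeq2 gave adjusted p values of 0.0203 for the members nearest to RBMS3 and RPLP1, 0.0403 for that nearest to TRIB2 0.102 for that nearest to LOC105377015 and 0.173 for that nearest to KLF12, and none for that nearest to RMDN2, which its filter on low counts left out.

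The remaining higher pair was of low level. The member nearest to KLF12, a zinc-finger transcription factor gene (chr13:73450628-73451874), had 5.42 and 8.80 CPM under Inflachromene against 2.42 and 2.68 CPM under Carrier. That nearest to RMDN2 (chr2:37802205-37803600) had 4.91 and 7.23 CPM against 1.49 and 2.52 CPM. In at least 1 library, peaks covered less than 50% of this last region (1396 bp), and the part of this in its values was not tested. In all 6, Inflachromene 35 was the highest library and Inflachromene 11 the next. Non-member regions in the 10 Mb windows of the members on chromosomes 2 and 3 stood at log2 differences of 0.20 (TRIB2), 0.15 (RMDN2) and 0.11, in the same direction, and those around RPLP1 and KLF12 at -0.05 and 0.03.

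The 6 members with the smallest p among those lower in both Inflachromene libraries included 3 with a tRNA gene. The member at TRI-AAT1-1 and the LOC105375103 start site (chr6:57799819-57800895), 153 kb from the primase gene PRIM2, had 2.67 and 2.32 CPM in Inflachromene 11 and 35, against 5.06 and 5.16 CPM in Carrier 12 and 31, a log2 fold change of -1.04 (standard error 0.25). At TRL-CAA3-1 (chr6:27602017-27602900) the values were 35.8 and 29.6 CPM against 46.5 and 53.2 CPM, at -0.61 (0.16), and at TRR-CCG1-1 (chr6:28742469-28743404) 14.9 and 15.9 CPM against 24.6 and 23.5 CPM, at -0.64 (0.18). The other 3 were faint: the members nearest to CTSO, a cathepsin gene (chr4:156293527-156295179), to LOC107987004 (chr9:63335046-63335988) and to CSNK1G3, a casein kinase gene (chr5:123882707-123883694). They had 0.904 to 2.88 CPM under Inflachromene against 2.41 to 5.39 CPM under Carrier. In at least 1 library, peaks covered less than 50% of the region nearest to CTSO (1653 bp), and the part of this in its values was not tested. That near LOC107987004 lies in pericentromeric sequence with near-identical copies. The edgeR adjusted p of all 6 was 0.99963. DESeq2 gave an adjusted p to the members at TRL-CAA3-1 (0.336) and TRR-CCG1-1 (0.539) and none to the other 4, which its filter on low counts left out.

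**Figure D4:**
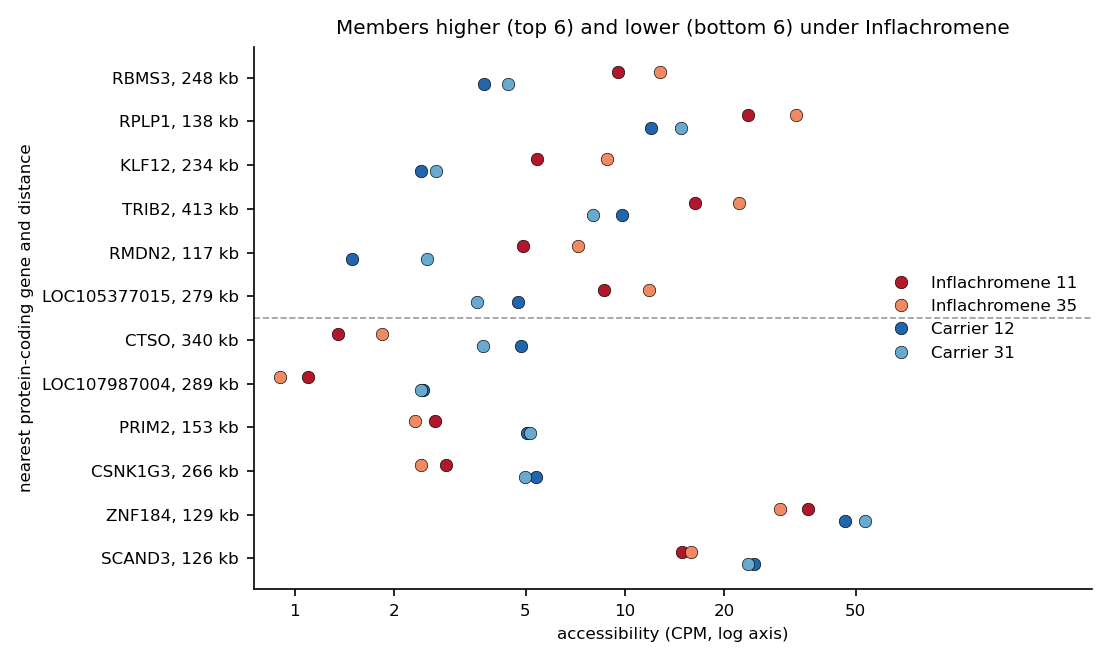
Accessibility (CPM, log axis) in each library of the 6 members with the smallest p among those higher under Inflachromene (above the dashed line) and the 6 among those lower, labelled by the nearest protein-coding gene and its distance. Inflachromene libraries are drawn in red above the Carrier libraries in blue; the rule kept only members whose groups do not overlap, so the separation is not a result.

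Members near regulator genes leaned to one side in a way that rested on 1 library. Of the 193 members nearest to a regulator of development, 137 had a log2 fold change above 0 (71.0%, against 53.4% of all members and 51.7% of all regions), with a median of 0.15 and 0 called. For the 55 nearest to mesenchymal and AP-1 factors it was 42, with a median of 0.27: ZEB2, a repressor of E-cadherin, had a median of 0.45 over 12 members and ETS1 one of 0.31 over 17. For the 27 nearest to pancreatic lineage factors it was 19, with a median of 0.11. Without Inflachromene 35 these medians were -0.10, -0.09 and -0.28, and without Inflachromene 11 they were 0.33, 0.50 and 0.42. The median over all members moved the same way, to -0.11 without Inflachromene 35 and 0.11 without Inflachromene 11. The first and the second of these lists both hold RUNX1, RUNX2 and ZEB2, and SOX9 is also on the lineage list, so their members count in each.

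Single genes within the lists differed in direction. The 3 members nearest to SATB1, a chromatin organiser, had a median log2 fold change of 0.77 in a 10 Mb window at 0.24, the 7 nearest to TFAP2A one of 0.38 and the 25 nearest to MYC one of 0.11. The 16 members nearest to SOX2, a pluripotency factor, stood at -0.21 (12 below 0). Among 70 members nearest to secreted and matrix genes, 34 were above 0 and the median was -0.02: HAS2, a hyaluronan synthase, stood at -0.19 over 20 members, TNC, tenascin C, at -0.16 over 8 and TGFB2 at 0.11 over 11. The HMG protein list had members near HMGA2 alone, 4 in number, with a median level of 35.4 CPM per kb and a median log2 fold change of 0.13; the top one (chr12:65656553-65657457) had 44.5 and 51.0 CPM under Inflachromene against 49.2 and 39.3 CPM under Carrier. None of the members in any list was called by edgeR.

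Members with a tRNA gene were lower under Inflachromene as a class. All 28 had a log2 fold change below 0 (median -0.39, range -1.04 to -0.06), where 51.7% of all consensus regions were above 0. Both Inflachromene libraries lay below both Carrier libraries in 24 of the 28 and above them in 0, against 17.4% of all regions below. Their summed accessibility was 699 and 619 CPM in Inflachromene 11 and 35, against 795 and 847 CPM in Carrier 12 and 31. Of the 28, 12 had an unadjusted p under 0.05 and 0 passed the edgeR test after adjustment. The class was chosen after its values were seen and was not tested as a set.

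The median kept its sign with each library left out, which says little, because the groups did not overlap in 24 of the 28. It was -0.46 without Inflachromene 11, -0.28 without Inflachromene 35, -0.39 without Carrier 12 and -0.36 without Carrier 31. The 433 members of 20 CPM per kb or more without a tRNA gene had a median log2 fold change of 0.06, and members with a lncRNA start site and no tRNA gene had one of 0.07 (78 of 128 above 0). Of the 28, 24 lie in a span of 1.78 Mb on the short arm of chromosome 6 (chr6:27019760-28796502), a known cluster of tRNA and histone genes, with a median of -0.39; the remaining 4, on chromosomes 1, 4, 6 and 15, had a median of -0.29. Within that span 7 members without a tRNA gene stood at -0.25, 48 nearer regions with a tRNA gene at -0.34 (47 below 0) and 73 nearer regions without one at -0.12 (57 below 0). Non-member regions of the 10 Mb window around the span, the 48 with a tRNA gene among them, stood at -0.12. The windows of the remaining 4 members stood at -0.10 to 0.01. With the difference of each member's own window taken as an offset in the fit, the median of the 28 was -0.27, with 26 below 0. Outside the span 181 nearer regions with a tRNA gene had a median of -0.09 (134 below 0), which became 0.00 when barcodes with a count were tallied in place of counts; for the 28 members that tally gave -0.29. tRNA genes have near-identical copies, so reads inside the gene itself are less certain than those of its flanks.

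The most accessible of them, TRI-AAT2-1 (chr6:27687905-27688569), had 70.0 and 72.3 CPM per kb in Inflachromene 11 and 35, against 75.5 and 87.1 in Carrier 12 and 31. At TRK-TTT7-1 (chr6:28747367-28748231) the levels were 43.4 and 37.2 CPM per kb against 56.2 and 53.4. At TRA-AGC7-1 (chr6:28719232-28720162), which had the lowest log2 fold change (-0.72) of the members with a tRNA gene in the span, they were 5.82 and 4.21 CPM per kb against 7.47 and 8.95. Most symbols name the amino acid, by its letter after TR, and the anticodon. In 4 the groups overlapped: TRK-TTT4-1, TRT-AGT2-2, TRA-CGC4-1 and TRE-TTC2-2, and in the first Inflachromene 11 (19.4 CPM per kb) lay above Carrier 31 (18.8). Genes for several amino acids, among them isoleucine, lysine, leucine, threonine, valine and alanine, were in the class.

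**Figure D5:**
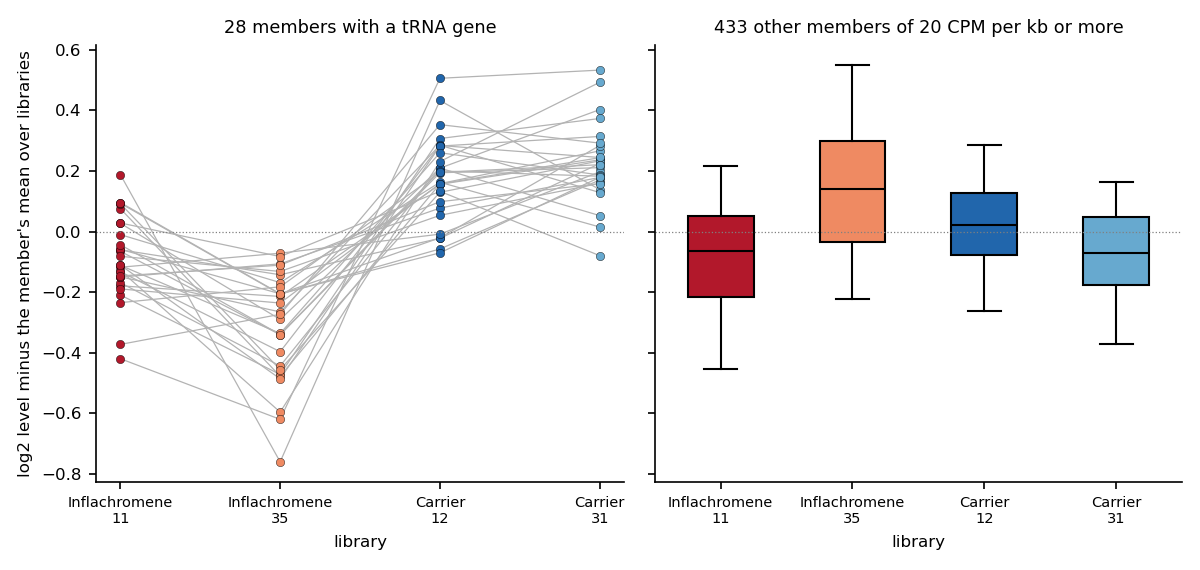
Left, log2 level of each of the 28 members with a tRNA gene minus its mean over the 4 libraries, 1 line per member: the Inflachromene libraries lie mostly below 0 and the Carrier libraries mostly above. Right, the same for the 433 other members of 20 CPM per kb or more, as boxes (median, middle 50%, lines from 5 to 95%), where Inflachromene 35 is the highest library.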

How the data were processed

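Accessibility was measured by single-cell ATAC-seq in 4 libraries of Panc1 nuclei from transplanted mice, 2 per group, with groups taken from the treatment and title labels. For each library the authors deposited raw counts, whole numbers for each barcode in each peak, and the positions of its peaks. Per the submitters' processing notes, GRCh38 and Cell Ranger ATAC, version 2.1.0, were used; the notes also list Cell Ranger ARC, with no role, and settings are not stated. Even values made up 82.4% to 84.9% of the nonzero entries, a pattern of counting fragment ends in pairs. Peaks overlapping by at least 1 bp were merged, a library's count in a region was summed over its own peaks and over all barcodes, and the mouse is the replicate. Peaks called per library differ in width, so sums move with what was called.

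Distances were measured to protein-coding gene bodies of the RefSeq table for GRCh38.p14, which gives no strand; start sites and sequences come from RefSeq windows of 300 bases, and not every start site has one. A genome was not used, so the planned motif search in the members' own sequence was replaced by one in start-site windows. Overlapping windows of opposite strand were reverse complements in 2813 of 2813 cases.

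Groups were compared in edgeR (version 4.0.16, under R 4.3.3), with TMM factors (0.975 to 1.03), filterByExpr, which removed 0 regions, the quasi-likelihood F test and Benjamini-Hochberg adjustment over 50771 regions at 0.05; DESeq2 1.42.0 was the other tool. The fit was tested on simulated data. Shares and ratios per library were compared by two-sided exact permutation tests (scipy 1.17.1). The 10 Mb window value rests on the share of a library's counts in non-member consensus regions that fell in the window, without TMM factors. It is the group mean of the log2 share, Inflachromene minus Carrier, in windows with at least 20 such regions. The fold changes of members use TMM factors, so the scaling differs.

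Named members follow a rule: up to 6 in each direction ranked by unadjusted p, taking only members whose libraries of both groups do not overlap, the 8 of highest level, the 5 farthest, the 6 gaps with most members, up to 6 in non-coding genes and up to 3 per gene list by level; other members named were chosen after their values were seen. The members and lists were chosen with earlier results of these data known. Alternatives changed the tool, scaling, filter, barcodes, distance, gene set, overlap, neighbourhood offset and libraries.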

Additional observations from a re-analysis of the deposited data

How the results depend on the processing

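No paired analysis was possible because the mouse numbers differ between the groups. Leaving out each library in turn gave 0 to 470 called members and 0 to 3180 called regions of all. DESeq2 called 3 members and 28 regions. All other settings of the tests called 0 members.

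The median log2 fold change of members (0.03) was -0.0086 without TMM factors, -0.0138 with barcodes in place of counts and -0.0067 with distance taken from all annotated genes; it ranged from -0.11 to 0.11 over left-out libraries, -0.02 without Carrier 31 and -0.11 without Inflachromene 35. The group difference in the share of consensus counts in members (0.05 points) was -0.0603 points over all counts of the library, and -0.32 to 0.42 points over left-out libraries, negative without Carrier 31 (-0.16) and without Inflachromene 35 (-0.32). The per-nucleus share (0.10 points) ranged from -0.28 to 0.48, negative without the same libraries (-0.20 and -0.28). Neither had a sign that held. The log2 ratio of levels, members over the rest, lay between -0.93 and -0.74 in all settings. The median of members with a tRNA gene (-0.39) was -0.29 with barcodes in place of counts, -0.27 with the window offset and -0.46 to -0.28 over left-out libraries, and negative in all settings. The groups did not overlap in most of these members when the class was chosen, so its sign could hardly turn with a library left out.

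The 12 members named by smallest p were taken only where the groups did not overlap, so leaving out a library could hardly turn their sign. The filter removed 0 regions, so the setting without it repeats the main fit. The setting where peaks of every library cover at least 50% of the region gave no value to the members nearest to RMDN2 and CTSO. That with a mean count of at least 100 gave none to those nearest to CTSO and LOC107987004. With these limits, the 12 kept their sign under each of 14 alternative settings that gave them a value (164 values). Single members passed the threshold in 20 of these values: 11 without Inflachromene 11, 6 without Inflachromene 35 and 3 in DESeq2; the causes were not tested. Limits: 2 mice per group, 0.333 as the smallest permutation p, intervals that reach 2-fold at many members, and a library, Inflachromene 35, with more counts and peaks in total than the rest. The alternatives keeping each shared barcode once and the class of members with a tRNA gene were chosen after seeing the data.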
